A study of Mus musculus with 8 samples.

Results

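The serpin family was examined through the genes whose symbol has the form Serpin, a clade letter from a to i, and a number. Of 19310 genes with an array row that the platform annotation assigns to 1 gene symbol, 47 were serpins, and each had 1 such row. They comprised 14 genes of clade A (3 of the Serpina3 cluster, 3 Serpina1 genes and 8 others), 24 of clade B, 1 each of clades C, D, E, G and H, and 2 each of clades F and I. RNA came from epididymal white adipose tissue, fat of the abdominal cavity, of male C57BL/6 mice aged 12 to 15 weeks on a standard diet and a cycle of 12 h light and 12 h dark. The tested mice carried a knockout of Rev-erb alpha (4 arrays, called KO below) and were set against wild-type mice (4 arrays, WT), all sampled at Zeitgeber time 10, in hours from lights on. The labels used here name neither the knockout allele nor whether it acts in all tissues, and they leave unsaid whether each array stands for its own mouse, so the spread behind the p-values may be technical.

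Serpins are a large family of proteins with a shared fold, most of which inhibit proteases. An inhibitory serpin offers an exposed loop as bait, and once the protease cuts the loop, the serpin springs into another shape and traps the enzyme on itself. Clade A members are mostly secreted and made by the liver, clade B members lack a classical signal peptide and act mostly inside cells, and some members of the family carry hormones or fold collagen in place of inhibiting a protease. Rev-erb alpha is a nuclear receptor of the circadian clock that represses transcription, and it binds DNA through the letters AGGTCA, usually with A and T bases before them.

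Promoter windows of 300 bases are printed for Serpinf1, which had the clearest increase, and for Serpina3b and Serpina3n, related genes of the Serpina3 cluster with different measured changes. Each runs 5′ to 3′ along the gene's own strand, from 250 bases before to 50 after the start of the gene in RefSeq (GRCm38.p6). Capitals mark AGGTCA or its reverse complement TGACCT, and the TATA box letters TATAAA.
Serpinf1 (chr11:75422574-75422873, minus strand): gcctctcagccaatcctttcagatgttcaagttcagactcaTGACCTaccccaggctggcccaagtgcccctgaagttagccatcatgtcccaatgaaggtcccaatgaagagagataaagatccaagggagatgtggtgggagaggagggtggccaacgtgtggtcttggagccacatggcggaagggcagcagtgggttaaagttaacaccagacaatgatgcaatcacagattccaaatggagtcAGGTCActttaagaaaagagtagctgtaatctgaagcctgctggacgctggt
Serpina3b (chr12:104127746-104128045, plus strand): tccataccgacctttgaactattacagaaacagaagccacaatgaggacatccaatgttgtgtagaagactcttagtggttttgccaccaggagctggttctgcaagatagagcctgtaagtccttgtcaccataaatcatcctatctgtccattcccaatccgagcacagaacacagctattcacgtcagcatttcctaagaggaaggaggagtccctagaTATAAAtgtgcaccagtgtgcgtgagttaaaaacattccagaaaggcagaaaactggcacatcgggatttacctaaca
Serpina3n (chr12:104406458-104406757, plus strand): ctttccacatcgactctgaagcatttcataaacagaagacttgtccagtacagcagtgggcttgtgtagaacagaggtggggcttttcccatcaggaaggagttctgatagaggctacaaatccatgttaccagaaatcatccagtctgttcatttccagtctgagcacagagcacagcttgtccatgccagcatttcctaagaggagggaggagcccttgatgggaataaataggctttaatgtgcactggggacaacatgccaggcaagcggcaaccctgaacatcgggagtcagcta
The Serpinf1 window held the AGGTCA letters at 2 places, beginning at base -2 on the gene's strand and, in reverse, at base -209, with +1 as the start. Over a stretch as long as the letters, the bases just before them were mostly G and C at both places, read on the strand of the letters. The Serpina3b window held TATAAA from base -28, and the Serpina3n window held none of the letters searched. The windows of Serpinb6a and Serpinb8, the other called genes, held none of them either. In a global alignment 217 of the 300 bases (72.3%) of the Serpina3b and Serpina3n windows were identical. AGGTCA was found on either strand in 16.3% of 32851 windows of all genes and in 16 of 48 serpin windows (33.3%), which belonged to 14 of the 40 serpin genes with a window. TATAAA was found in 13.6% of all windows and in 15 of the serpin windows. CACGTG, the E-box (7.15% of all windows), and TTATGTAA or TTACGTAA, the D-box (1.06%), were found in 0 serpin windows. Related serpin genes share sequence, so their windows are not independent and the shares were not tested, and a match of letters is not a binding site.

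Array medians lay between 5.90 and 5.95 on the log2 scale, on which every value below is given. The check genes gave a mixed reading of the labels. Arntl, a clock gene repressed by Rev-erb alpha, read 6.94, 6.65, 6.95 and 6.94 in KO arrays and 5.12, 5.19, 4.96 and 4.80 in WT arrays (log2 fold change 1.85 with SE 0.098, limma adjusted p = 3.2e-05). Of 9 clock genes measured 3 were called higher, Arntl, Nfil3 (1.48) and Clock (0.71), and 1 lower, Per3 (-0.49). All 9 lay above the median row level, where 13.1% of all genes were called. Nr1d1, the gene of Rev-erb alpha, was not measurably lower (-0.26, SE 0.19, limma adjusted p = 0.479), and which part of the transcript its row reads is not given in the sources used here. KO therefore means the label. On the component of variation that holds 14.7% of the variance, KO arrays 1 and 2 (-12.8 and -10.7) stood apart from KO arrays 3 and 4 (11.4 and 5.91), and WT array 1 (9.93) from the other WT arrays (-2.42 to 0.43). For the called serpins and Serpinh1 the fold change is also given with each pair of KO arrays alone. Adipocyte markers were bright on all arrays (list mean 11.69 to 11.76 in KO and 11.61 to 11.75 in WT arrays), and 0 of 11 hepatocyte markers and 0 of 10 epididymis markers lay above the median row level of the table, with 0 called in either list.

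Across the family, 4 of 47 genes passed limma's test at an adjusted p under 0.05, which is 2 higher and 2 lower in KO tissue. Serpinf1 and Serpinb6a rose, and Serpina3b and Serpinb8 fell. Among all genes, each by its brightest row, the share called was 7.5% (3.89% higher and 3.61% lower), so the count of serpins lay near the background. In 8 serpins the KO and WT arrays did not overlap (5 higher and 3 lower), against 15.5% of all genes (7.29% and 8.26%). The median log2 fold change was 0.03 over the serpins and -0.01 over all genes. Of the serpins 32 had a fold change above 0, a count that was 27 with quantile normalization and 37 with median centring of the arrays (68.1%, 57.4% and 78.7%, against 48.1%, 48.6% and 54.3% of all genes). Most of the family was dim. Only 8 of the 47 rows were brighter than the median row, and of these 8, 3 were called, against 13.1% of all genes above that level.

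**Figure D1:**
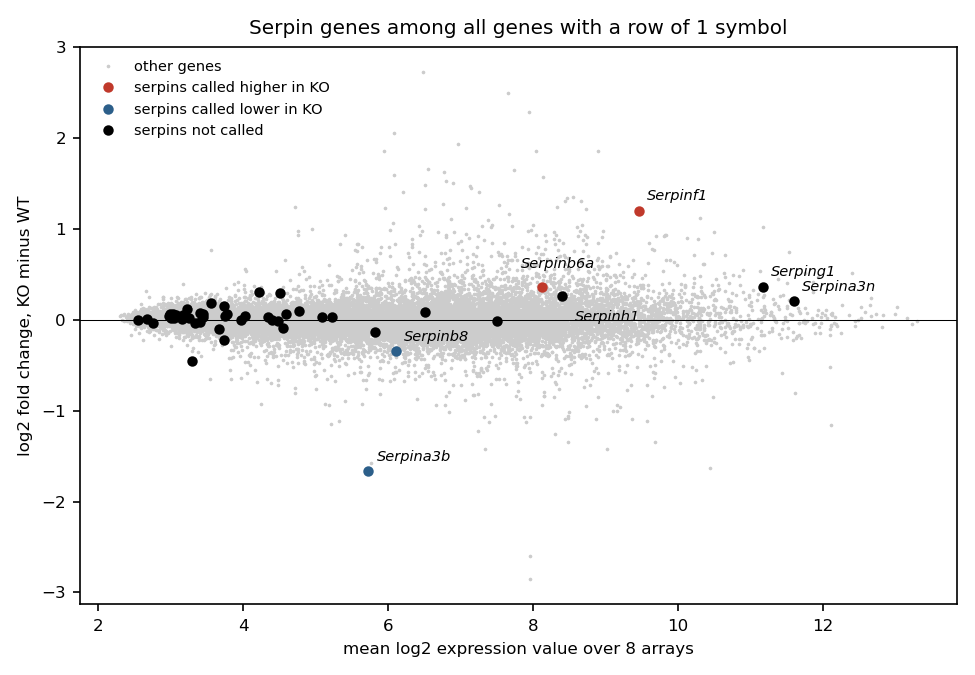
Log2 fold change (KO minus WT) against the mean log2 value over the 8 arrays for each gene's brightest row. Grey points are all other genes and large points the 47 serpins, of which Serpinf1 (1.20) and Serpina3b (-1.66) lie outside the band that holds most genes, while 39 serpins sit at or below the median row level.

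Serpinf1 encodes pigment epithelium-derived factor, a secreted serpin without inhibitory activity that restrains vessel growth and is released by fat cells. It read 9.91, 9.91, 10.23 and 10.18 in KO arrays and 8.97, 8.97, 8.70 and 8.81 in WT arrays. Every KO array lay above every WT array, with a gap of 0.94 log2 between the groups. The means were 10.06 ± 0.17 in KO and 8.86 ± 0.13 in WT (SD, n = 4 each), and the ratio was 2.29-fold (log2 fold change 1.20 with SE 0.093, limma adjusted p = 9.55e-05). By the size of its p-value Serpinf1 stood 22nd, and by its log2 fold change 33rd from the top, among 19310 genes. The fold change was 1.05 with KO arrays 1 and 2 alone and 1.34 with arrays 3 and 4 alone, and the call held in both.

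The other clade F gene, which lies near Serpinf1 on chromosome 11 in RefSeq, did not pass. Serpinf2, which encodes the plasmin inhibitor alpha-2-antiplasmin, read 5.23, 5.24, 5.20 and 5.28 in KO arrays and 5.24, 5.20, 5.22 and 5.16 in WT arrays. The 2 groups overlapped, and the 95% interval of its log2 fold change ran from -0.07 to 0.14. Of 8 fibroblast and progenitor markers, Col1a1, Dpt and Pi16 were called higher and 0 were lower (median log2 fold change 0.24). All 8 lay above the median row level, where 13.1% of all genes were called in either direction. The other 5 did not pass, with Dcn at -0.14 and Cd34 at -0.02, and the list mean was 9.07 to 9.25 in KO arrays and 8.71 to 9.02 in WT arrays. The part of these cells in the Serpinf1 difference was not tested, and in bulk tissue more cells of a type and more RNA per cell cannot be told apart. Pdgfra, a defining marker of these cells, had a log2 fold change of 0.14 (limma adjusted p = 0.552). Of 8 adipocyte markers, all likewise above the median row level, 1, Lep, was called higher (0.75) and 0 lower. In this list 5 had a fold change under 0 (list median -0.06). Plin1 (-0.20, limma adjusted p = 0.0529) and Lipe (-0.15, 0.141) were lower in KO without overlap but did not pass.

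The 3 measured genes of the Serpina3 cluster, secreted serpins that expanded in mice from a single ancestor, comprised 1 called gene and 2 that did not pass. Serpina3b read 4.65, 4.99, 4.87 and 5.06 in KO arrays and 5.45, 6.53, 7.23 and 7.03 in WT arrays. The groups did not overlap, and WT array 1 was the lowest of its group and nearest to the KO arrays. The means were 4.89 ± 0.18 in KO and 6.56 ± 0.80 in WT (n = 4 each), a log2 fold change of -1.66 (SE 0.31, limma adjusted p = 0.0105), or 3.17-fold lower in KO. By log2 fold change it ranked 3 from the bottom among 19310 genes. Its mean over the 8 arrays, 5.73, lay below the median row level of 5.94, and no detection call was used here. The fold change ranged from -2.03 (without WT array 1) to -1.44 with single arrays left out, called each time. With KO arrays 1 and 2 alone it was -1.74 (limma adjusted p = 0.0703) and with arrays 3 and 4 alone -1.59 (0.0527).

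Serpina3n, an acute phase protein that inhibits granzyme B in mice, had the brightest row of the cluster and did not pass. It read 11.64, 11.58, 11.84 and 11.76 in KO arrays and 11.26, 11.64, 11.52 and 11.58 in WT arrays. The groups overlapped, and the log2 fold change of 0.20 (SE 0.089, limma adjusted p = 0.215) had a 95% interval of 0.01 to 0.40. Serpina3a, the neighbour of Serpina3b in gene order, read 4.05, 3.92, 3.96 and 3.94 in KO arrays and 3.96, 3.93, 3.84 and 4.17 in WT arrays. Its log2 fold change of -0.01 (95% interval -0.17 to 0.16) changed sign with median centring (0.0107). Genes of this cluster are close copies of each other, and how far each row reads only its own gene was not tested. The other Serpina3 genes of the RefSeq table were not analysed here.

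The acute phase and glucocorticoid list, given because Serpina3n belongs to the acute phase response, had 2 members called higher and 1 lower of 17. Of the 17, 13 lay above the median row level, where 13.1% of all genes were called, against 7.5% at any level. The plasma carrier genes Orm1 (0.93, SE 0.14, limma adjusted p = 0.00363) and Orm2 (0.76, SE 0.14, 0.00992) rose, and the metalloreductase gene Steap4 fell by 0.34 (SE 0.069, 0.015). The other 14 did not pass, and the list's median was 0.07.

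**Figure D2:**
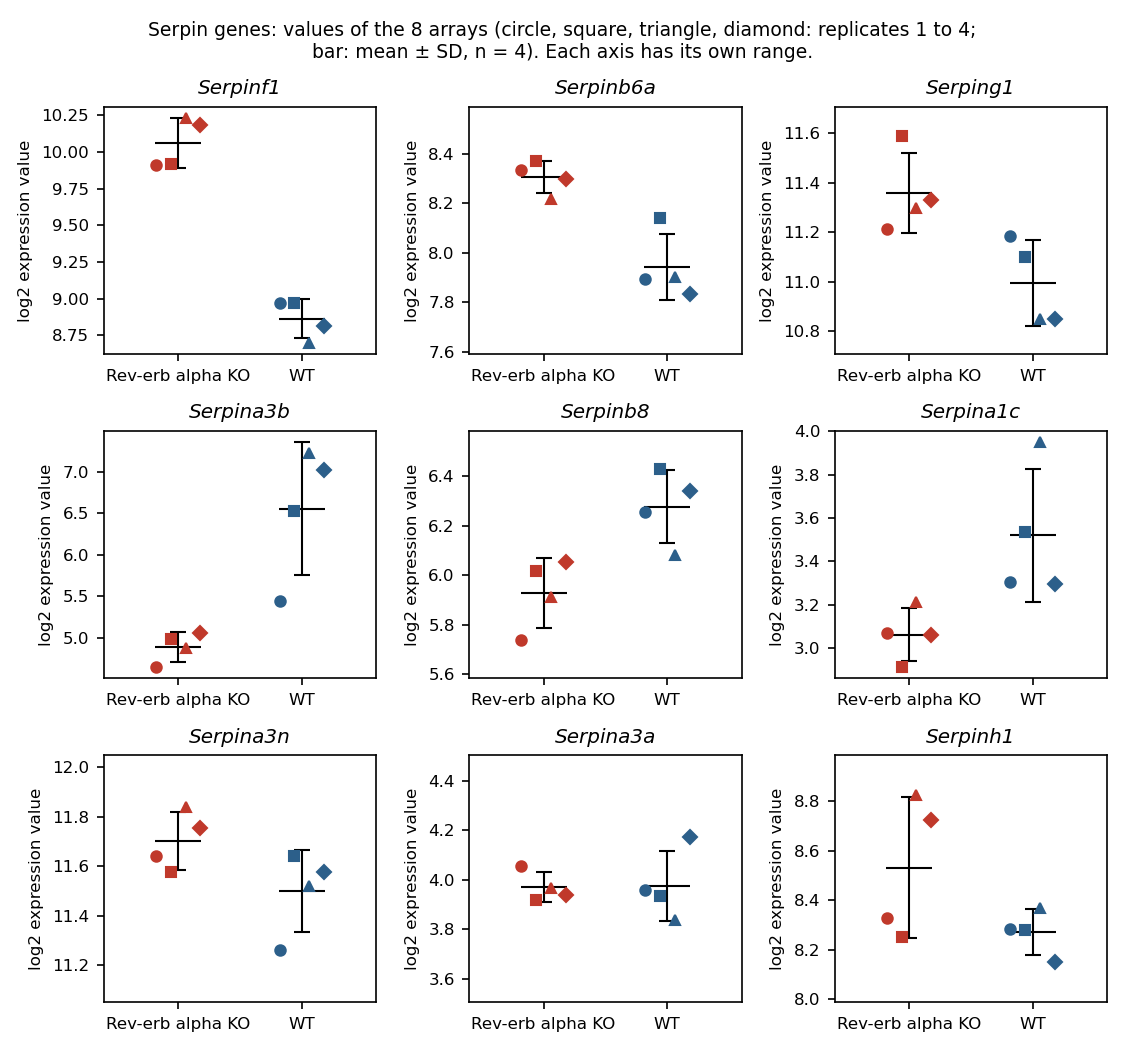
Log2 expression values of 9 serpin genes on the 8 arrays, KO at left and WT at right in each panel, with the group mean and SD (n = 4) as bars and the replicate number as the marker shape. Serpinf1, Serpinb6a and Serping1 lie higher in every KO array and Serpina3b, Serpinb8 and Serpina1c lower, while Serpina3n, Serpina3a and Serpinh1 overlap between the groups.

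The Serpina1 genes encode mouse relatives of antitrypsin, an inhibitor that protects tissue from neutrophil elastase. Whether each of them inhibits that enzyme was not examined. None of the 3 measured passed. Serpina1c read 3.07, 2.91, 3.21 and 3.06 in KO arrays and 3.31, 3.53, 3.95 and 3.29 in WT arrays. The groups did not overlap, with a log2 fold change of -0.46 (SE 0.13, limma adjusted p = 0.0658). Serpina1d read 4.00, 4.09, 4.78 and 4.61 in KO arrays and 3.88, 4.21, 4.54 and 3.61 in WT arrays, with overlap and a log2 fold change of 0.31 (SE 0.22, limma adjusted p = 0.463). It was -0.02 with KO arrays 1 and 2 alone and 0.63 with arrays 3 and 4 alone. Serpina1f read 3.38, 3.62, 3.71 and 3.80 in KO arrays and 3.98, 3.67, 3.97 and 3.78 in WT arrays, also with overlap (-0.22, SE 0.099, limma adjusted p = 0.225). All 3 rows were below the median row level, and no detection call was used here. Serpina1a, Serpina1b and Serpina1e were found only on rows shared by several genes and were not analysed here.

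The other 8 clade A genes had log2 fold changes between -0.10 and 0.16, and 0 of them passed. Serpina12, which encodes vaspin, an adipokine described in visceral fat of obese rats, read 3.69, 3.80, 3.92 and 3.86 in KO arrays and 3.76, 3.68, 3.66 and 3.56 in WT arrays. The groups overlapped by 1 WT array (0.16, SE 0.065, limma adjusted p = 0.193). The hormone carriers Serpina6, which binds corticosteroids, and Serpina7, which binds thyroid hormone, had log2 fold changes of 0.00 and 0.08. Serpina5 and Serpina10, inhibitors of coagulation proteases, had 0.04 and 0.10. The pseudogene Serpina4-ps1 had -0.10, and Serpina9 and Serpina11 had -0.02 and -0.09.

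Of 24 clade B genes, 1 rose and 1 fell, a count near the 7.5% called among all genes. Serpinb6a, an intracellular inhibitor of cathepsin G, read 8.34, 8.37, 8.22 and 8.30 in KO arrays and 7.89, 8.14, 7.90 and 7.83 in WT arrays. The groups did not overlap, and WT array 2 came nearest to the KO arrays. The means were 8.30 ± 0.07 in KO and 7.94 ± 0.14 in WT (n = 4 each), and the ratio was 1.29-fold (log2 fold change 0.36 with SE 0.072, limma adjusted p = 0.0133). It was called with each single array left out (0.33 to 0.43), but not with KO arrays 1 and 2 alone (0.41, limma adjusted p = 0.0504) or 3 and 4 alone (0.32, 0.0751).

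Serpinb8, whose human counterpart inhibits the convertase furin, read 5.74, 6.02, 5.91 and 6.05 in KO arrays and 6.26, 6.43, 6.08 and 6.34 in WT arrays. The gap between the highest KO and the lowest WT array was 0.03. The means were 5.93 ± 0.14 in KO and 6.28 ± 0.15 in WT (n = 4 each), a log2 fold change of -0.35 (SE 0.090, limma adjusted p = 0.0426). The call was the weakest of the family. It was lost in 7 of the 8 fits that leave out an array, held without WT array 3 (0.0279), and was lost with quantile normalization (-0.32, limma adjusted p = 0.0532) and with median centring (-0.33, 0.0513). It was lost with KO arrays 1 and 2 alone (-0.40) and with 3 and 4 alone (-0.29).

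The clade B genes lie in a group on chromosome 1 and another on chromosome 13, and those beside a called gene were not called with it. On chromosome 13, Serpinb6c, the measured serpin next to Serpinb6a, had a log2 fold change of 0.18 (SE 0.057, limma adjusted p = 0.0798). It read 3.63, 3.63, 3.61 and 3.73 in KO arrays and 3.37, 3.52, 3.43 and 3.54 in WT arrays, without overlap. Serpinb6e followed at 0.06, and the bright paralog Serpinb6b at -0.01 (95% interval -0.23 to 0.21). On chromosome 1, Serpinb10 and Serpinb2, the measured serpins before Serpinb8, had -0.01 and 0.29 (limma adjusted p = 0.979 and 0.135). Serpinb2 encodes a plasminogen activator inhibitor of macrophages. The 22 clade B genes that did not pass had fold changes from -0.13 (Serpinb1a, an inhibitor of neutrophil elastase) to that of Serpinb2, and 2 of them, Serpinb6b and Serpinb9, were above the median row level. Serpinb9, which protects cells from granzyme B, read 6.47 to 6.66 in KO and 6.32 to 6.71 in WT arrays (0.09, 95% interval -0.10 to 0.28).

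**Figure D3:**
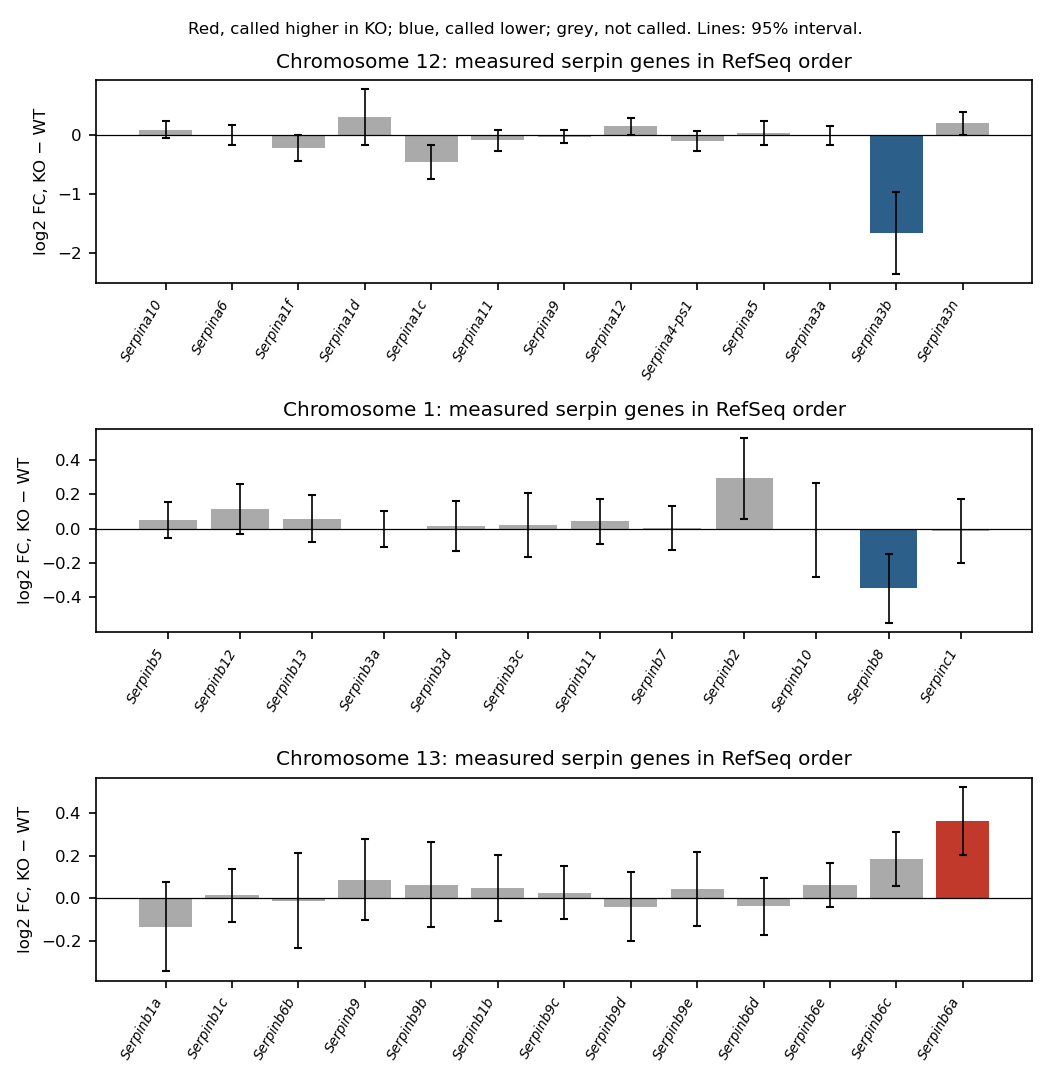
Log2 fold changes (KO minus WT, bars) with their 95% intervals (lines) for the measured serpins of chromosomes 12, 1 and 13, in RefSeq gene order. Each of the 3 groups holds 1 called gene, Serpina3b (-1.66), Serpinb8 (-0.35) and Serpinb6a (0.36), with neighbours that were not called.

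Proteases that clade B serpins meet were read from a pair of lists. Among granule proteases of neutrophils, mast cells and lymphocytes, 0 of 14 were higher and 1 was lower, near the 7.5% of all genes. This was Prtn3, a neutrophil protease that read 5.14 to 5.50 in KO and 5.72 to 6.09 in WT arrays (-0.57, SE 0.10, limma adjusted p = 0.00882). Ctsg, the gene of cathepsin G, was dim and did not pass (0.06, limma adjusted p = 0.646). Among 11 cathepsins and cystatins, all above the median row level, 2 were higher and 1 lower. Of all genes above that level, 13.1% were called in either direction. In this list 4 were higher and 1 lower without overlap. Of all 9601 genes above that level, 1135 were higher and 1276 lower without overlap. Ctsl, a lysosomal cysteine protease gene, read 10.21 to 10.30 in KO and 9.46 to 9.73 in WT arrays (0.63, SE 0.066, limma adjusted p = 0.000434), and Ctsz was higher by 0.24 (0.0454). Ctsc, whose product activates granule proteases, read 9.27 to 9.65 in KO and 10.03 to 10.37 in WT arrays (-0.74, SE 0.096, limma adjusted p = 0.00146). Markers of immune cells gave no calls in either direction, with 0 of 7 macrophage, 0 of 7 mast cell and 0 of 8 lymphocyte genes past the threshold. In lists this short such counts lie near the shares of all genes (7.5%, and 13.1% above the median row level). All 7 macrophage genes lay above that level and had fold changes above 0. Of the mast cell genes 5 had fold changes above 0 and 2 under, and of the lymphocyte genes 2 above and 6 under. The macrophage list mean was 8.15 to 8.41 in KO and 7.77 to 8.26 in WT arrays, with a median log2 fold change of 0.23.

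Serping1, the inhibitor of the first proteases of the complement cascade and of plasma kallikrein, stood just outside the threshold. It read 11.21, 11.59, 11.30 and 11.33 in KO arrays and 11.18, 11.10, 10.85 and 10.85 in WT arrays. The groups did not overlap, but KO array 1 and WT array 1 lay 0.03 apart. The log2 fold change was 0.36 (SE 0.10, n = 4 each, limma adjusted p = 0.055). It did not pass under 13 of 18 alternatives, with fold changes from 0.29 (without KO array 2) to 0.43 over all 18 and adjusted p up to 0.158 (KO arrays 1 and 2 alone). It passed with the dimmest 33.3% of rows left out (0.0397), with median centring (0.0394), with trend and robust options of eBayes (0.0436), with array weights (0.0466) and without WT array 1 (0.0376). Among 10 measured complement genes, 1 was higher and 1 lower. Of the 10, 7 were brighter than the median row, where 13.1% of all genes were called (7.5% at any level). C2, a protease of the classical pathway, read 8.22 to 8.65 in KO and 9.21 to 9.38 in WT arrays (-0.85, SE 0.088, limma adjusted p = 0.000437). Cfb, its counterpart in the alternative pathway, read 9.17 to 9.56 in KO and 8.82 to 8.97 in WT arrays (0.50, SE 0.082, 0.00565). C1ra, a direct target of the inhibitor, had -0.18 (0.488).

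Serpinh1 encodes HSP47, a chaperone of the endoplasmic reticulum that folds collagen and inhibits no protease. It read 8.33, 8.25, 8.83 and 8.72 in KO arrays and 8.28, 8.28, 8.37 and 8.15 in WT arrays. KO arrays 3 and 4 lay above all WT arrays, and KO arrays 1 and 2 lay among them. Its fold change was 0.26 log2 (SE 0.12, limma adjusted p = 0.248), 0.02 with KO arrays 1 and 2 alone (0.939) and 0.50 with arrays 3 and 4 alone (0.00641). The KO arrays were split after the data were seen, and the values of Serpinh1 part along that split. The p-values of the 2 pairs are therefore no test of a change in this gene. Of 15 measured genes in a list of collagens and partners of collagen synthesis, which also holds the matrix protein gene Sparc (called higher, 0.24), 8 were higher and 0 lower (median log2 fold change 0.24). All 15 lay above the median row level, where 13.1% of all genes were called. The collagen gene Col1a1 was higher by 0.71 (SE 0.086, limma adjusted p = 0.001), the prolyl hydroxylase gene P4ha2 by 0.46 (0.00302) and the lysyl hydroxylase gene Plod3 by 0.35 (0.0107). Plod2, another lysyl hydroxylase gene, did not pass and was lower without overlap (-0.19, limma adjusted p = 0.0903). Col1a1 read 9.20 and 9.32 in KO arrays 1 and 2, 9.61 and 9.51 in KO arrays 3 and 4, and 8.63 to 8.77 in WT arrays.

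The serpins of coagulation, fibrinolysis and the nervous system did not pass. Serpinc1 (antithrombin) had a log2 fold change of -0.01 (95% interval -0.20 to 0.18) and Serpind1 (heparin cofactor) of 0.03 (-0.11 to 0.16). Serpine3 had 0.02 (-0.12 to 0.17), and Serpini1 (neuroserpin, an inhibitor of tissue plasminogen activator) and Serpini2 had 0.06 each. In the plasminogen system, 0 of 10 genes were higher and 1 was lower, namely Vtn, a count near the 7.5% of all genes. It encodes vitronectin, an adhesive protein of plasma and matrix, and read 6.42 to 6.76 in KO and 6.88 to 7.51 in WT arrays (-0.53, SE 0.13, limma adjusted p = 0.0297). The annexin partner S100a10 (0.23, 0.071) and the urokinase gene Plau (-0.26, 0.0989) did not pass. Among 19 coagulation genes, 0 were higher and 1 was lower, again near that share. Thbd, the endothelial thrombin receptor thrombomodulin, read 9.17 to 9.41 in KO and 9.57 to 9.92 in WT arrays (-0.40, SE 0.087, limma adjusted p = 0.0194). Of 8 endothelial markers 2, Cldn5 (0.99) and Pecam1 (0.20), were called higher and 0 lower. The other 6 did not pass, and 2 of them, Kdr and Tie1, had fold changes of -0.02 and -0.01. The list mean was 8.50 to 8.63 in KO and 8.23 to 8.46 in WT arrays. Of 8 mesothelial markers 1, Msln, was higher (0.60) and 0 lower, while 6 had a fold change under 0 (list median -0.14). All genes of both lists lay above the median row level, where 13.1% of all genes were called.

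**Figure D4:**
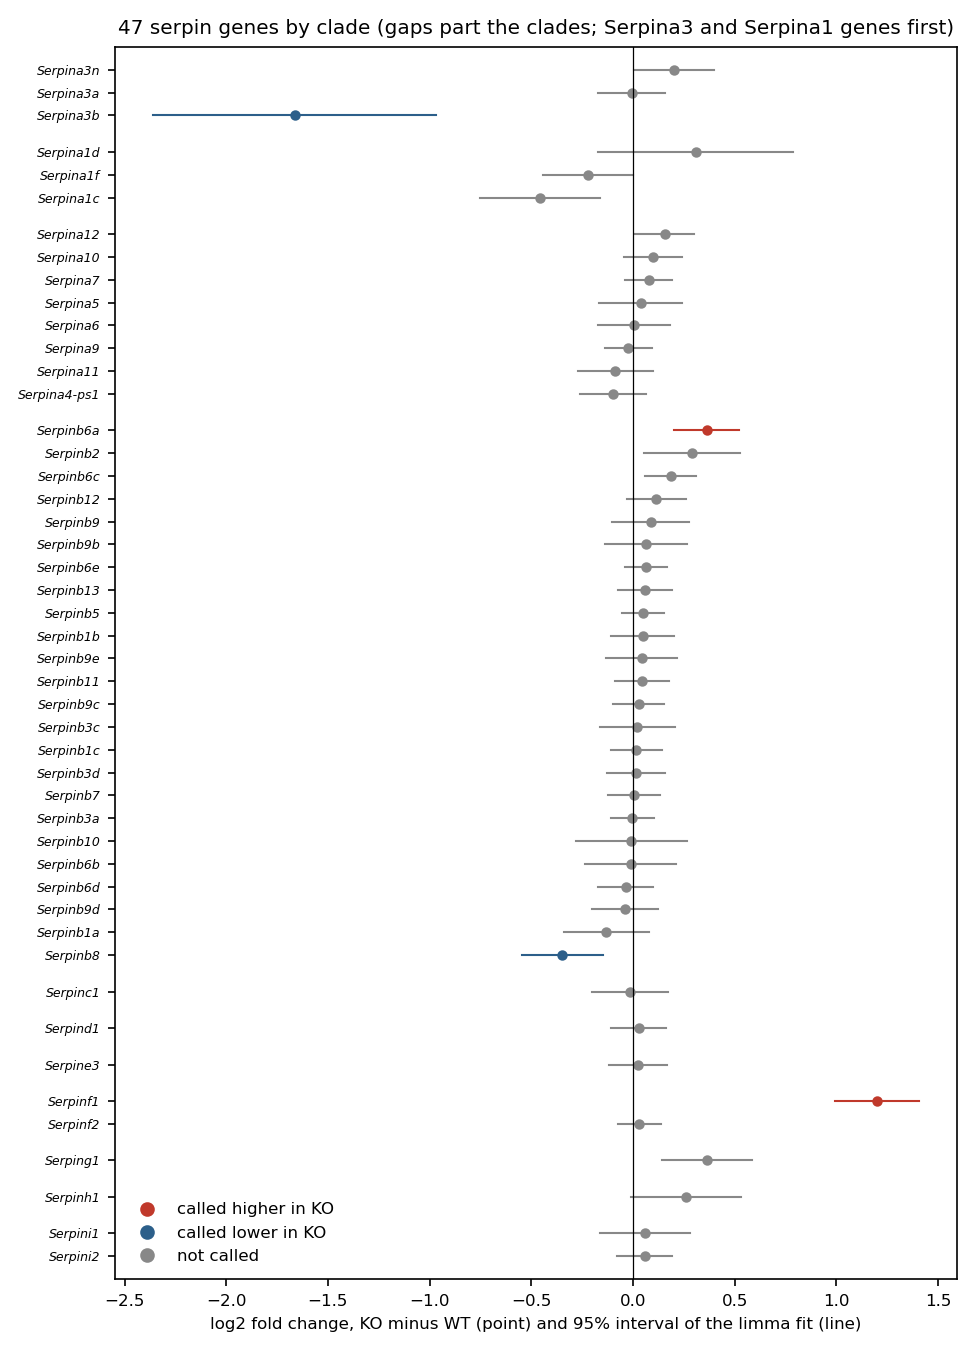
Log2 fold change (KO minus WT, points) with the 95% interval of the limma fit (lines) for all 47 serpin genes by clade. Serpinf1, Serpinb6a, Serpina3b and Serpinb8, drawn in colour, pass adjustment over all rows. The intervals of some genes not called also lie away from 0, such as Serping1 (0.14 to 0.58) and Serpina1c (-0.75 to -0.16). The fold changes of the 22 other clade B genes lie between -0.13 and 0.29.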

How the data were processed

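Total RNA was labelled with biotin through whole-transcript kits and read on an Affymetrix mouse array, per the labels. The values deposited by the authors are log2 expression values, 1 per row and array. The submitters' processing notes name affy, and its background correction, normalization and summarization steps were not stated in these sources. The values (2.09 to 13.4) show the log2 scale.

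Of 23346 rows, the 20748 with exactly 1 platform symbol went into limma 3.58.1 under R 4.3.3 (lmFit, then eBayes, KO against WT, no other term, no filter), with two-sided p-values adjusted by Benjamini-Hochberg over all of them. A row was called at an adjusted p under 0.05, and each gene was read from its brightest row. All 47 serpins matched RefSeq (GRCm38.p6), which names 69 genes of this pattern, and the other 22 were not analysed here. Array values were given for called serpins, Serpina3 and Serpina1 genes, Serpinf1, Serpinh1, Serping1, Serpina12 and Serpinb6a, and up to 3 members with the smallest p from each partner list. Genes given beyond this, neighbours and markers among them, were chosen after their values were seen. The members and lists were chosen with earlier results of these data known. The fit was tested on simulated data. Precision is limited by having 4 arrays in each group. Alternatives were other normalizations, filters, variance models and call rules, array weights, a block for the replicate number and single arrays left out. Fits with KO arrays 1 and 2 or 3 and 4 alone were added after seeing the data.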

Additional observations from a re-analysis of the deposited data

Results flagged for a closer look

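Of 94 groups of 4 arrays, 2 per serpin gene, 3 held an array far from the others, and chance gives about 1 in 20. Serpinb9b read 4.35 in KO array 1, against 4.68 to 4.74 in the other KO arrays, and 4.70 in WT array 3, against 4.49 to 4.52 in the other WT arrays. Serpind1 read 4.27 in KO array 4, against 4.38 to 4.39 in the other KO arrays. Both genes were dim and not called.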

How the results depend on the processing

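Against the main counts of 2 serpins higher and 2 lower, the lower count was 1 with quantile normalization and with median centring, since Serpinb8 was lost, and single arrays left out gave 2 to 3 higher and 1 to 2 lower. An adjusted p under 0.10 gave 4 serpins higher (Serpinb6c and Serping1 added) and 3 lower (Serpina1c added), with 1236 rows higher and 1316 lower in all. A 1.5-fold minimum gave 1 serpin higher and 1 lower (Serpinf1 and Serpina3b), with 210 and 116 rows. With KO arrays 1 and 2 only, 1 serpin was higher and 0 lower (403 and 298 rows), and with arrays 3 and 4 only 2 were higher and 0 lower. These fits hold fewer samples. Over all tested rows, 791 were higher and 745 lower, and 499 to 747 and 414 to 671 with single arrays left out, where the lowest counts came without KO array 4. Other alternatives kept every serpin and row count within 1.5 times. Serpina3a changed sign with median centring (0.0107), with KO arrays 1 and 2 only (0.0095) and with single arrays left out (-0.0534 to 0.0583), and Serpina1d with KO arrays 1 and 2 only (-0.0183). Serpinf1 was called under all 18 alternatives run for it (1.05 to 1.34). The replicate number as a block gave 2 serpins higher and 3 lower, with Serpina1c added (limma adjusted p = 0.0394). Whether the replicate numbers pair the arrays cannot be settled with 4 arrays in each group. Correlations of same-numbered deviations ran from -0.0674 to 0.134, and 2 of 8 arrays correlated best with their own number. Dim rows have no bound for background here.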
